A study of Homo sapiens with 6 samples.

Results

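HNF4A, FOXA1, FOXA2, FOXA3, CEBPA, CEBPB, ONECUT1 and PROX1 encode transcription factors that establish and maintain the hepatocyte lineage. These 8 genes were taken as a list of names, with no measured value in the rule, and each was represented by the transcript cluster annotated with its symbol alone. A transcript cluster is the set of probes that an exon array assigns to a gene. Such a cluster was found for 6 of the 8 genes, among 12797 clusters with exactly 1 gene symbol and 16634 clusters in all. *HNF4A* and *ONECUT1* had no cluster of this kind, so their expression was not analysed here.

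The data are 6 exon arrays of HepG2, an established hepatoblastoma cell line that is used as a model of hepatocytes. The 3 atorvastatin arrays were from cells treated with 10 µM of the sodium salt of atorvastatin, a statin that inhibits HMG-CoA reductase, for 24 h. The 3 control arrays were from cells that received no drug. Both groups were kept in medium in which lipoprotein deficient serum replaced fetal bovine serum, so the controls were also deprived of lipoproteins. The wells were triplicates of 1 tumor-derived line on collagen-coated plates. The study calls its samples biological replicates, but the sources used here do not state whether the wells were cultured independently. The *p*-values therefore cover the spread among these 6 samples only, which may be technical.

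FOXA proteins are forkhead factors that can bind their sites in closed chromatin and open it for other factors, and in mice FOXA1 and FOXA2 are needed for the liver to form. C/EBP proteins, encoded by *CEBPA* and *CEBPB*, bind DNA as dimers through a leucine zipper, with C/EBPα tied to the metabolic genes of the mature hepatocyte and C/EBPβ to the acute phase response and regeneration. HNF4α is a nuclear receptor, ONECUT1 a cut-homeodomain factor, and PROX1 a homeodomain factor that hepatoblasts need to migrate in the mouse embryo. These factors bind together at the enhancers and promoters of genes such as *ALB* and *APOB*, and many of them regulate each other.

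Promoter sequences are shown because 3 of the measured members have a TATA core at nearly the same distance from the start of transcription. RefSeq windows (GRCh38.p14, from 250 bases before to 50 bases after the transcription start) were found for *FOXA1*, *FOXA3*, *CEBPA* and *CEBPB* among the measured members. Capitals in the sequences mark TATAAA, the core of the TATA box, in *FOXA3*, *CEBPA* and *CEBPB*. In *FOXA1* they mark GCAAACA, a match on the other strand to TGTTTNC, the core bound by forkhead factors.
FOXA1 (chr14:37595400-37595499, minus strand, 250 to 151 bases before the start): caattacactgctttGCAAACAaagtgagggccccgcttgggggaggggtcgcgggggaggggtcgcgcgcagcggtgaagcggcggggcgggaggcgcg
FOXA3 (chr19:45864226-45864325, plus strand, 100 to 1 bases before the start): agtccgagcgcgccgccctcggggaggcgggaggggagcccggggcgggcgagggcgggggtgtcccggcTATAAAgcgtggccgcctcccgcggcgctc
CEBPA (chr19:33302535-33302634, minus strand, 100 to 1 bases before the start): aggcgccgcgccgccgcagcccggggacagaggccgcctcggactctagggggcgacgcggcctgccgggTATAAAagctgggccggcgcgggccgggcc
CEBPB (chr20:50190730-50190829, plus strand, 100 to 1 bases before the start): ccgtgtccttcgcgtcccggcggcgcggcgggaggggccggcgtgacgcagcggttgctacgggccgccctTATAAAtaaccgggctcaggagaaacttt

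The TATAAA core starts 30 bases before the start in *FOXA3* and *CEBPA*, and 29 bases before it in *CEBPB*, where it is in 1 of 2 listed windows. No listed window of *HNF4A* or *ONECUT1* holds it. The core is also found at position -29 in *HMGCS1* and -27 in *INSIG1*, which are statin response genes, so this distance is not particular to the members. Of all 35116 windows, 11.5% hold TATAAA on either strand, and 2.17% hold it on the coding strand starting 35 to 25 bases before the start. TGTTTNC on either strand is in 18% of all windows, and of those of the measured members only the *FOXA1* window holds it. The C/EBP core TTGCNNCAA (1.98% of windows) and TCACNCCAC (1.13%), the core of the sterol regulatory element through which SREBP factors raise sterol genes, were searched on both strands and matched no window of a measured member. The sterol core also matched no listed window of the statin response genes described below. Its absence therefore does not set the members apart from those genes. The windows of the measured members were rich in G and C, with 69.3% in *FOXA1*, 76.3% in *FOXA3*, 80.7% in *CEBPA* and 77% and 76.7% in *CEBPB*. The median over all windows was 58.7%. Of the members without a cluster, *ONECUT1* had 75%, but the windows of *HNF4A* had 60% and 57.7%, close to that median. A match is a run of letters and not a known site, and the windows cover only a short stretch around the start.

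*FOXA1* had by far the highest control value of the members, *CEBPB*, *CEBPA*, *FOXA2* and *PROX1* lay close together, and *FOXA3* was lowest. The deposited values are log2 RMA values, in which each unit is a doubling of signal. In control cells the mean was 10.70 ± 0.042 for *FOXA1*, 8.50 ± 0.049 for *CEBPB*, 8.40 ± 0.094 for *CEBPA*, 8.34 ± 0.15 for *FOXA2*, 8.26 ± 0.11 for *PROX1* and 6.95 ± 0.16 for *FOXA3* (SD, n = 3 each). These means were higher than those of 98.6% of the 12797 clusters for *FOXA1*, 82.8% for *CEBPB*, 81.2% for *CEBPA*, 80.2% for *FOXA2*, 79% for *PROX1* and 54.3% for *FOXA3*. The gap between *FOXA1* and *CEBPB* was 2.21 ± 0.021 (SD over the 3 control arrays), and the gap between *PROX1* and *FOXA3* was 1.31 ± 0.27. At both gaps no control array of the lower gene reached the higher gene. Among the 4 genes between them, control ranges overlapped in 5 of 6 pairs, including all neighbours in the order. The exception was *CEBPB* above *PROX1*, where the lowest *CEBPB* array (8.45) was above the highest *PROX1* array (8.34). *CEBPB* was above *CEBPA* on each of the 3 control arrays, by 0.09 ± 0.091 (SD). The lowest *CEBPB* array (8.45) was nevertheless below the highest *CEBPA* array (8.47), and *FOXA2* was above *PROX1* on only 1 of the 3 control arrays although its mean was 0.07 higher. Because each gene has its own probes, this is an order of array signals and not of transcript numbers.

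**Figure D1:**
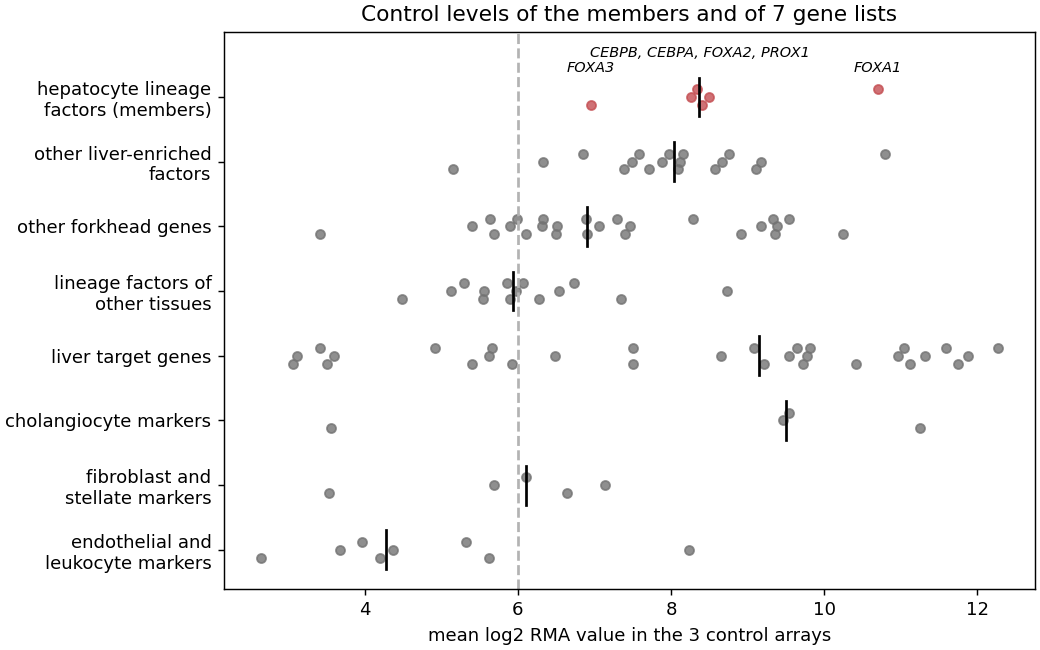
Mean log2 RMA value of each gene in the 3 control arrays (horizontal axis), for the 6 measured members in the top row and 7 other gene lists below. Each point is a gene, the black bar is the median of the list and the dashed line is the level of 6 taken as dim; all 6 members lie above it, from 6.95 for *FOXA3* to 10.70 for *FOXA1*.

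In a limma fit with replicate number as a block, none of the 6 members passed the correction over all 12797 clusters, in either direction. The background was the same, since 0 clusters passed upwards and 0 downwards (0.0% each, smallest adjusted *p* = 0.535). Before adjustment, 127 of the 12797 clusters and 0 members had a limma *p* under 0.05. This is a smaller share of clusters than the 5% expected if nothing differed. The lack of calls in the block fit is therefore little evidence that the members did not change. When the block was dropped, limma called 4 clusters higher (0.0313%) and 0 lower (0.0%), and no member was among them. Of the members, 4 were higher and 2 were lower on average in atorvastatin-treated cells, where 55.8% of all clusters were higher. The atorvastatin and control values overlapped in all 6 members. Over all clusters, 4.57% had every atorvastatin array above every control array and 2.68% had every one below, 7.25% together.

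The FOXA genes differed little between the groups. *FOXA1* had log2 values of 10.53, 10.77 and 10.66 in atorvastatin-treated cells, against 10.75, 10.69 and 10.67 in control cells. The treated arrays spread to both sides of the controls, which lay within 0.08 of each other. The mean difference was -0.05, or 0.965-fold (95% confidence limits on the log2 scale -0.30 and 0.20; limma, adjusted *p* = 1).

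*FOXA2* had 8.35, 8.52 and 8.39 in treated cells, against 8.50, 8.30 and 8.21 in control cells. The highest control array lay within the range of the treated arrays, and the other two controls lay below it. Its mean difference of 0.08, or 1.06-fold, was among the larger ones of the members, yet 28.5% of all clusters had a difference of larger size (confidence limits -0.18 and 0.35, adjusted *p* = 1). *FOXA3*, a relative that in mice is expressed in liver later in development than the other two, had 6.83, 7.04 and 6.91 in treated cells, against 7.13, 6.82 and 6.90 in control cells. The controls held both the highest and the lowest value. Its difference was -0.03, or 0.982-fold (confidence limits -0.32 and 0.27, adjusted *p* = 1).

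The C/EBP genes had slightly higher means in treated cells, within the spread of the arrays. *CEBPA* had 8.41, 8.57 and 8.47 in treated cells, against 8.47, 8.45 and 8.30 in control cells. A single control array, at 8.30, lay below all treated arrays. The difference was 0.08, or 1.06-fold (confidence limits -0.16 and 0.32, adjusted *p* = 1), and *CEBPA* had the smallest *p* of the members before adjustment.

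*CEBPB* had 8.41, 8.74 and 8.53 in treated cells, against 8.55, 8.45 and 8.48 in control cells. Its treated arrays spanned more than any other group of a member, with an SD of 0.17 in treated and 0.049 in control cells (n = 3 each), and enclosed all 3 controls. The difference was 0.06, or 1.04-fold (confidence limits -0.21 and 0.34, adjusted *p* = 1).

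*PROX1* had 8.32, 8.37 and 8.15 in treated cells, against 8.13, 8.31 and 8.34 in control cells. Each group had 1 low array and 2 near each other above it, so the groups had nearly the same shape. The difference was 0.02, or 1.01-fold (confidence limits -0.25 and 0.28, adjusted *p* = 1), and 80.9% of all clusters had a difference of larger size.

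**Figure D2:**
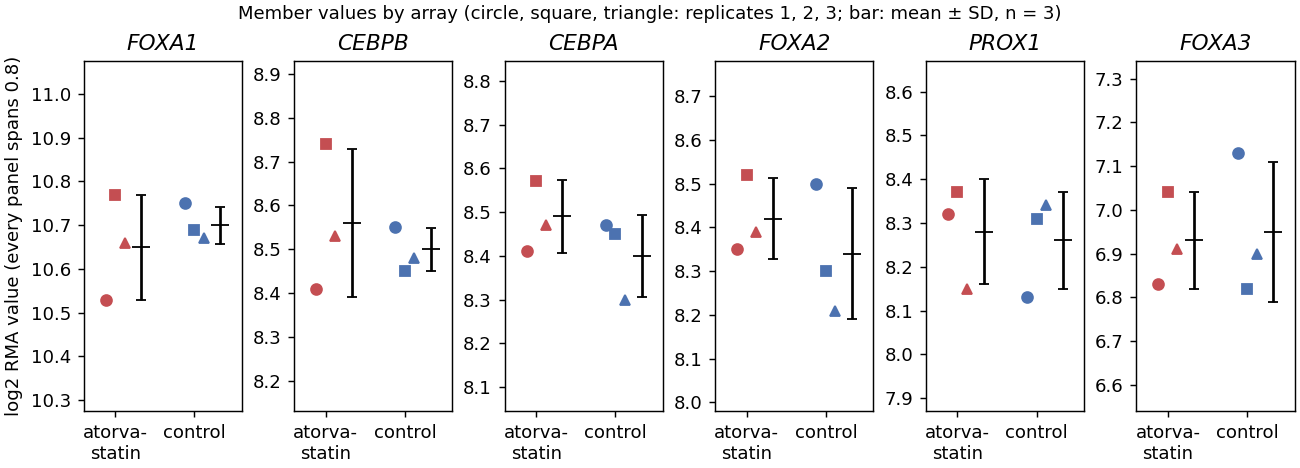
Log2 RMA values of the 6 members in each atorvastatin array (red, left) and control array (blue, right), with the mean and SD of each group (n = 3). Every panel spans 0.8 on the log2 scale, and in every panel the 2 groups overlap.

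Two-sided exact permutation tests of the 6 arrays gave *p* = 0.4 for *CEBPA* and *FOXA2*, 0.6 for *FOXA1*, 0.7 for *CEBPB* and *PROX1* and 0.9 for *FOXA3*, where 3 against 3 arrays cannot go below 0.1. The median difference of the 6 members was 0.04, beside 0.01 over all clusters, and the median size of the difference was 0.0571, beside 0.0512. The median difference of the members was 0.132 without replicate 1 and -0.0251 without replicate 2, so its direction rests on single replicates. The confidence intervals of the members ran from 0.799-fold (*FOXA3*) to 1.28-fold (*FOXA2*) at their outermost. These limits give the precision reached with 3 arrays a group and are not a limit of detection, since larger changes could also be missed. On the simulated arrays described below, the block fit found 0.4% of changes of 0.25 on the log2 scale and 2.8% of changes of 0.5. These rates may not carry over to the real arrays. In bulk RNA, fewer cells that express a gene and less RNA per cell cannot be told apart. The direction of 4 members turned when 1 replicate number was left out. Without replicate 1 the log2 difference was 0.03 for *FOXA1*, 0.12 for *FOXA3* and -0.07 for *PROX1*, and without replicate 2 it was -0.05 for *CEBPB* and -0.003 for *PROX1*. *CEBPA* and *FOXA2* stayed above 0, but their differences were 0.15 and 0.20 without replicate 1 and 0.03 and 0.03 without replicate 3, and that of *FOXA2* was 0.02 without replicate 2.

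The members can be set beside genes known to respond to statins through SREBP factors. Of 9 such genes, 7 were measured, and all 7 were higher on average in treated cells. In 6 of them, all treated arrays were above all controls. The exception was *INSIG1*, which was dim, at 4.77 in treated and 4.70 in control cells. Its difference of 0.07 was no larger than those of *CEBPA* and *FOXA2* (0.08 each). Their median log2 difference was 0.57. *MVD*, a decarboxylase of the mevalonate pathway, averaged 9.11 ± 0.023 in treated and 8.38 ± 0.11 in control cells (SD, n = 3 each), a difference of 0.74 (confidence limits 0.51 and 0.96). Lanosterol synthase (*LSS*) had a difference of 0.68 (0.46 to 0.90). Neither passed in the fit with the block (adjusted *p* = 0.535 for both, from limma), but both did without it (adjusted *p* = 0.0402 and 0.029). The upper limit of each member, at most 0.35, was below the lower limits of *MVD* and *LSS*, which were the highest of the 7 genes, and below that of *HMGCS1* (0.38). The lower limit of *FDPS* was 0.35, and those of *SQLE* (0.17), *IDI1* (0.11) and *INSIG1* (-0.18) lay within the range of the members' intervals. A difference between members and sterol genes was not itself tested. This list was chosen with the response of these arrays known and is no independent evidence.

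**Figure D3:**
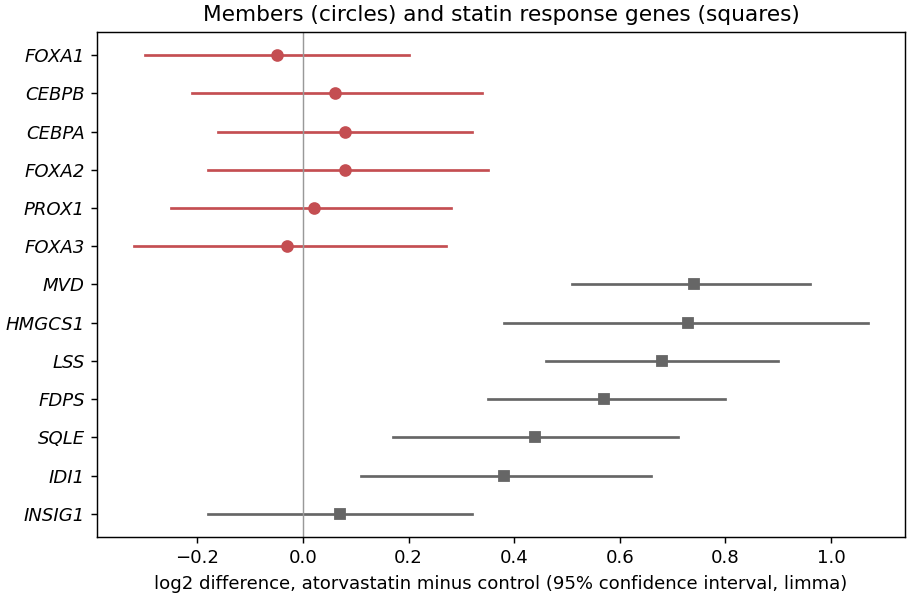
Log2 difference between atorvastatin and control cells (horizontal axis) with its 95% confidence interval from limma, for the 6 members (red circles) and the 7 measured statin response genes (grey squares). The intervals of all 6 members include 0, between -0.32 and 0.35, whereas that of *MVD* runs from 0.51 to 0.96. Among the statin response genes, the interval of *INSIG1* also includes 0 (-0.18 to 0.32).

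Within each group, the FOXA and C/EBP members varied together from array to array, and *PROX1* followed them only in part. Among treated cells, replicate 2 was the highest array for all 6 members, against 30.6% of all clusters, and replicate 1 was the lowest for all but *PROX1*, against 39.2%. Among control cells, replicate 1 was the highest for the same 5 members, against 51.7% of all clusters, whereas for *PROX1* it was the lowest. The largest deviations from a group mean were 0.18, for *CEBPB* in treated replicate 2 and *FOXA3* in control replicate 1. Deviations from the group means correlated with a Pearson coefficient of 0.60 to 0.97 in the 10 pairs of the other 5 members (median 0.775, 6 arrays), highest for *FOXA1* with *CEBPB*. The coefficients of *PROX1* with these 5 were -0.40 to 0.07. All pairs share the same 6 arrays, and the group means take up some of their freedom, so these coefficients are only a description. The split of *PROX1* from the other 5 was not planned. It rests on these same values, so the 2 ranges are no separate evidence for it. Over all clusters, the first component of the deviations from the group means held 64.7% of their variance. Coefficients of other gene pairs were not computed, so the values are not known to be particular to the members.

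The arrays differed in the spread of all values, which is given here because it moves with part of this pattern. The interquartile range of all clusters was 2.785, 2.822 and 2.643 in treated replicates 1, 2 and 3, and 2.601, 2.795 and 2.901 in control replicates 1, 2 and 3. Control replicate 1, the highest array for the FOXA and C/EBP genes, had the narrowest range, but treated replicate 2, the highest array for all members, had the widest of its group. The part of this spread in the members' values was not tested. Array medians were 6.664 to 6.719.

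**Figure D4:**
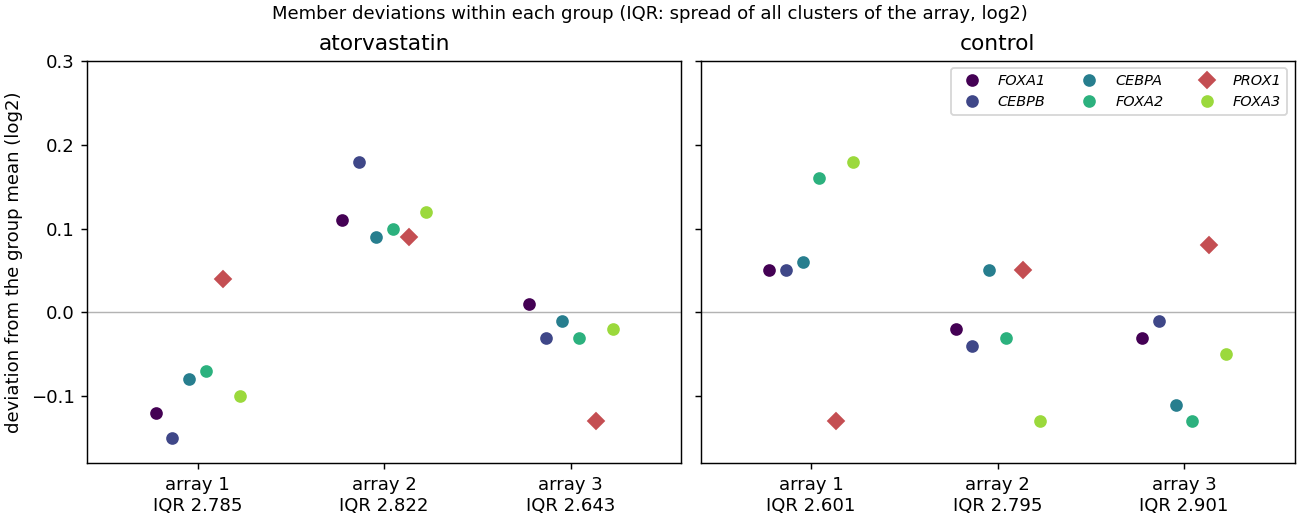
Deviation of each member from the mean of its group (vertical axis, log2) on each of the 3 atorvastatin arrays (left) and 3 control arrays (right), with the interquartile range (IQR) of all clusters of the array under its number. *PROX1* (red diamonds) is opposite to the other 5 members on control array 1, at -0.13 against 0.05 to 0.18, and on treated array 1, at 0.04 against -0.15 to -0.07. On treated array 2 it lies on the same side as the others, at 0.09 against 0.09 to 0.18.

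Over the 6 arrays, the clusters whose values ran most like a member were *UBE2L6* for *FOXA1* (Pearson r = 0.9982), *DGCR8* for *CEBPB* (0.9939), *BCL7C* for *FOXA2* (0.9939), *PRDM10* for *FOXA3* (0.9932), *BLVRB* for *CEBPA* (0.9913) and *SNX24* for *PROX1* (0.9863). They were picked as the best of 8213 clusters with a mean log2 value of at least 6, over only 6 arrays. Between 18 and 42 of these clusters had a coefficient over 0.95 with a given member. No member was the best match of another.

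Other liver-enriched transcription factors, which work with the members or under them, had values of a similar kind. Of 25 genes, 18 were measured, 10 were higher and 8 were lower on average in treated cells, and 0 passed the correction. Their median control value was 8.04, beside 8.37 for the members and 6.75 for all clusters, and only 1 of the 18, *NR1I3*, the constitutive androstane receptor, was under 6 in control cells. *HLF*, a PAR bZIP factor, was highest, at 10.75 ± 0.024 in treated and 10.80 ± 0.026 in control cells (SD, n = 3 each), close to *FOXA1*. Its 3 treated arrays were all below its 3 controls, as in 2.68% of all clusters, and no other gene of the list had groups without overlap. The difference of *HLF* was -0.05 (limma, adjusted *p* = 1).

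*NR0B2*, the small heterodimer partner that restrains other nuclear receptors in bile acid synthesis, had the largest difference of this list. Its values were 9.43, 9.59 and 9.44 in treated cells, against 8.79, 9.31 and 9.45 in control cells. A single control array, replicate 1, was far below the rest, and the highest control array lay within the treated range. The log2 difference was 0.30 (confidence limits -0.02 and 0.63, adjusted *p* = 1), and it was 0.14 without replicate 1 (limma, adjusted *p* = 0.75; range over the left-out replicates and arrays 0.149 to 1). *CEBPG*, a C/EBP relative that acts mainly as a dimer partner, had a difference of 0.12 (confidence limits -0.10 and 0.34, adjusted *p* = 1).

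Among 35 other forkhead genes, 25 were measured, 16 were higher and 9 were lower on average, and 0 passed the correction. Their median control value was 6.90, and their levels ran from 3.41 for *FOXP2* to 10.25 for *FOXK2*. *FOXA1*, at 10.70, was above all 25 of them in control cells, and *FOXA3*, at 6.95, was close to their median. *FOXE3* and *FOXN1* had the smallest *p*, with differences of 0.19 and 0.15 (adjusted *p* = 1 for both, from limma). That of *FOXN1* was 0.02 without replicate 3. All 3 treated arrays of *FOXE3* were above its controls, and all 3 of *FOXN3* were below, at 9.32, 9.31 and 9.27 in treated cells, against 9.36, 9.33 and 9.39 in control cells. Each was 1 of 25 genes, beside 4.57% of all clusters above and 2.68% below.

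Genes that the members are known to drive in liver showed no common direction. Of 38 such genes, 30 were measured, 14 were higher and 16 were lower on average in treated cells, and 0 passed the correction, with a median log2 difference of -0.01. Levels were widely spread, from 12.26 in treated and 12.27 in control cells for *APOB*, the main protein of LDL, to 3.15 and 3.06 for *ARG1*, the arginase of the urea cycle. *ALB*, which encodes albumin, averaged 11.82 ± 0.068 in treated and 11.88 ± 0.13 in control cells, and *AFP*, the fetal counterpart of albumin, 11.09 ± 0.081 and 11.12 ± 0.18 (treated and control, SD, n = 3 each). In control cells 10 of the 30 were under 6, among them *CYP7A1*, the rate-limiting enzyme of bile acid synthesis, at 3.50, and *OTC*, a urea cycle enzyme, at 3.41. The 2 genes with the smallest *p* were *IGFBP1*, a secreted binder of insulin-like growth factors, with a difference of 0.20, and *CYP3A4*, a drug-metabolizing cytochrome P450, with 0.19 (adjusted *p* = 1 for both, from limma). The difference of *CYP3A4* was 0.09 without replicate 2. The treated arrays of both were above all their controls, 2 of 30 genes beside 4.57% of all clusters. The treated arrays of *APOH*, a plasma apolipoprotein, were all below its controls, at 11.44, 11.47 and 11.41 in treated cells, against 11.53, 11.52 and 11.74 in control cells, 1 of 30 genes beside 2.68% of all clusters. *FGG*, the gamma chain of fibrinogen, had the largest difference of the list, -0.25 (confidence limits -0.64 and 0.14, adjusted *p* = 1), with overlapping groups. Its values were 9.33, 9.34 and 9.22 in treated cells, against 9.19, 9.52 and 9.92 in control cells. The other fibrinogen chains, *FGB* (-0.18) and *FGA* (-0.10), were also lower on average with overlapping groups. Control replicate 3 was the highest array for all of these chains.

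Factors that direct other tissues were mostly dim. Of 21 such genes, from muscle, nerve, blood, pancreas and others, 14 were measured, with a median control value of 5.94, and 8 of the 14 were under 6. The exception at the top was *PAX6*, at 8.73 in both treated and control cells. The members' median control value was 8.37, and 5 of the 6 members, all but *FOXA1*, were below *PAX6*. *FOXA3* (6.95) was also below *NKX2-5* (7.34). None of these factors passed the correction (0 higher, 0 lower).

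The label of the cells as a hepatoblastoma line was checked against markers. Of 8 hepatocyte markers, *ALB*, *AFP*, *APOA1*, *APOB* and *FGB* were measured, all between 9.65 and 12.27 in control cells. All 5 also belong to the list of liver target genes, in which 10 of 30 were dim, including the hepatocyte genes *ARG1* (3.15 in treated, 3.06 in control cells), *F9* (3.19 and 3.11), *TDO2* (3.56 and 3.59) and *SLC10A1* (4.86 and 4.91). Of 6 cholangiocyte markers 4 were measured, and *SPP1* (11.14 in treated, 11.26 in control cells), *EPCAM* (9.48 and 9.54) and *SOX9* (9.45 and 9.47) were bright, whereas *CFTR* (3.59 and 3.55) was dim. The summed level of these 4 was 11.83 to 11.87 in treated and 11.89 to 11.98 in control cells on the log2 scale, without overlap. This sum is weighted to *SPP1*, the brightest. Of the 4, only *SPP1* had all treated arrays below all controls, as in 2.68% of all clusters, and the other markers overlapped. The part of this sum in the members' values was not tested. Of 10 endothelial and leukocyte markers 8 were measured, and 7 of them were under 6 in control cells. The leukocyte gene *PTPRC* was lowest, at 2.69 in treated and 2.64 in control cells. The exception was *CD68*, at 8.28 in treated and 8.23 in control cells, close to *PROX1* (8.26 in control cells). The summed level of these markers was 8.83 to 8.98 in treated and 8.75 to 9.0 in control cells. Of 6 fibroblast and stellate cell markers 5 were measured, with summed levels of 8.55 to 8.68 in treated and 8.44 to 8.66 in control cells. In control cells 3 of the 5 were at least 6, *COL1A1* (7.14), *PDGFRB* (6.64) and *COL1A2* (6.10), and 2 were under 6.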

How the data were processed

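HepG2 RNA was hybridized to GeneChip Human Exon 1.0 ST arrays, 3 per group. The deposited table holds a log2 value for each transcript cluster and array, which the authors made in Partek Genomics Suite by RMA, the core meta-probe list and the average of the core probe sets. Versions are not given in the sources used here. The processing notes name hg18, so no coordinates of the clusters are given. The number of arrays limits the precision.

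Clusters with exactly 1 gene symbol were compared in limma 3.58.1 (R 4.3.3). The replicate number entered as a block, after the paired test of the methods, which leaves 2 residual degrees of freedom. Benjamini-Hochberg adjustment at 5% covered all 12797 clusters. The members and gene lists were chosen with earlier results of these data known. Named genes are the members, the 2 genes of smallest *p* and the levels at both ends of each list, and the nearest cluster of each member. The text gives some of these and adds, after their values were seen, marker, target and other list genes as examples and the third sterol gene in the closing section. The planned alignment of FOXA and C/EBP proteins was not run because no protein table was given. On simulated arrays of 12797 genes with 200 changed, the block fit found 2.8% of changes of 0.5 on the log2 scale and 70.4% of changes of 1, with a mean of 1 false call. Without the block it found 50.4% and 91.2%, with 6. The simulated noise was independent between genes and arrays, without the shared component of the real arrays, so these rates may not carry over. Alternatives were other variance models, filters, normalizations and annotations, no block, the methods' test, and the omission of each replicate or array. A residual component as a covariate was added after seeing the data. Python 3.11.15, pandas 2.3.3 and matplotlib 3.10.9 were used.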

Additional observations from a re-analysis of the deposited data

How the results depend on the processing

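No member passed the correction in any of the 17 alternatives with a test (smallest adjusted *p* = 0.618, limma). Sign changes occurred in 12 of 108 alternative values of the members, all of them with a replicate number or an array left out. Over those settings the log2 difference ranged from -0.117 to 0.0334 for *FOXA1*, -0.0476 to 0.166 for *CEBPB*, -0.0671 to 0.124 for *PROX1* and -0.149 to 0.115 for *FOXA3*. With no block, the values that changed sign were 0.00923 for *FOXA1* and 0.0235 for *FOXA3* without treated replicate 1, 0.0658 for *FOXA3* without control replicate 1, -0.027 for *CEBPB* without treated replicate 2, and for *PROX1* -0.0469 without control replicate 1, -0.00219 without treated replicate 1 and -0.0277 without treated replicate 2. The difference stayed above 0 for *CEBPA* (0.0266 to 0.15) and *FOXA2* (0.0151 to 0.202), and the median of the members ranged from -0.0273 to 0.132. The number of clusters called higher, 0 with the block, was 4 with no replicate block, 21 under a robust variance with a trend, 19 with the first residual component as a covariate, and 0 to 20 with replicates or arrays left out (12 without replicate 1, 20 without replicate 3, and 6 without control replicate 1 and no block). The number called lower was 0 to 12 with replicates or arrays left out (4 without replicate 1 and 12 without replicate 3) and 0 otherwise. Of the 7 statin response genes, 0 were called with the block, 2 with no replicate block, 4 with the trended variance, 5 with the residual component and 0 to 5 with replicates or arrays left out. *HMGCS1* had a log2 difference of 0.73 and passed with the trended variance (adjusted *p* = 0.0147). Deviations of same-numbered arrays correlated at -0.463, 0.0725 and -0.557, and the block changed no call of a member. Whether the replicate numbers mark paired wells cannot be told from these coefficients, because the first component held 64.7% of the variance of the deviations. Among every cluster instead of those with 1 symbol, the control level of *FOXA1* was above 97.7% instead of 98.6%. The causes of these shifts were not tested.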
